A study of Mus musculus with 6 samples.

Results

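The SLC25 genes encode the mitochondrial carriers, and 42 of them were measured in kidneys of female mice with a low or a high load of a TrnE mutation. TrnE is the glutamate tRNA gene of the mitochondrial genome. Members were all genes whose mm10 symbol begins with Slc25a and that had at least 10 counts in 3 or more kidneys, which 42 of the 47 such genes in the table met, among 32285 gene IDs in all. All 42 reached 10 counts in all 6 kidneys, so none entered through 1 group alone. The load gives, in percent, how much of a mouse's mitochondrial DNA is mutant. In the 3 low-load kidneys, which the titles call control, it was 10%, 5% and 15%. In the 3 high-load kidneys it was 75%, 75% and 80%. All 6 mice were females of 100 weeks and all carried the mutation, so there was no group without it. The labels give no strain and name no treatment, although the high-load titles use that word. Whole kidney RNA was sequenced, and the kidneys are called low-load 1 to 3 and high-load 1 to 3.

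SLC25 proteins are small membrane proteins built from repeats of the same fold, and nearly all of them sit in the inner mitochondrial membrane. Each moves a narrow set of solutes between cytosol and matrix, usually as an exchange: ADP for ATP, phosphate, carboxylic acids, amino acids, acylcarnitine, nucleotides, cofactors, iron or glutathione. The proximal tubule, which reabsorbs most of the filtrate and makes glucose and ammonia, is dense with mitochondria and depends on this traffic. Slc25a17 lies in the peroxisome and Slc25a46 in the outer mitochondrial membrane.

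Most carriers lay somewhat lower in high-load kidneys, and a carrier of ATP-Mg, Slc25a25, differed most. Of the 42 members, 35 had a fold change below 1 (83.3%, against 49.1% of the 15955 genes tested), and their median log2 fold change was -0.23 (all genes, 0.0067). In 14 members every high-load kidney lay below every low-load kidney (33.3%, against 15.8% of all genes), and in 3 every high-load kidney lay above (7.14%, against 17.1%). No member passed edgeR's quasi-likelihood test at an adjusted p under 0.05, a threshold that 0.0188% of all genes passed. At an unadjusted p under 0.05 there were 9 lower members (10.2% of all genes) and 3 higher ones (14% of all genes), and the looser adjusted limit of 0.1 was passed by 2 lower members, Slc25a13 and Slc25a25 (0.608% of all genes), and 0 higher ones (2.59%). DESeq2 called 8 members lower (3.88% of all genes with an adjusted p) and 1 higher (6.67%) at an adjusted p under 0.05, and limma-voom called 0 of 42 (0% of all genes), with 10 lower members at an unadjusted p under 0.05 (10.7% of all genes).

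**Figure D1:**
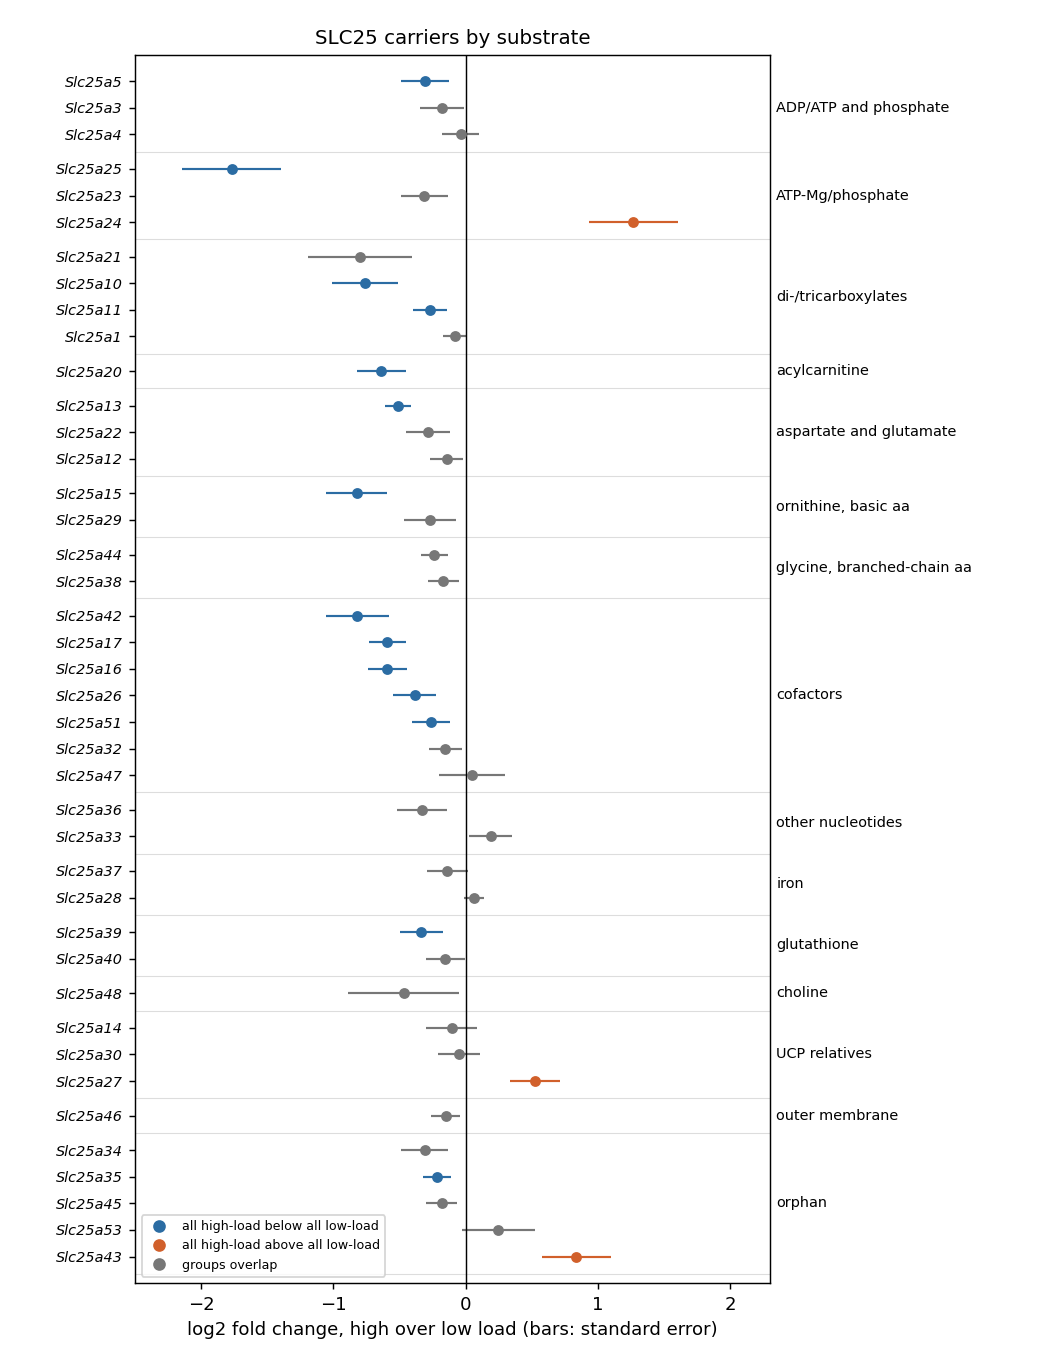
Log2 fold change of 41 of the 42 carriers, high over low load, with its standard error, grouped by substrate. Points left of 0 are lower in high-load kidneys; blue marks the 14 members whose groups do not overlap and are lower, orange the 3 that are higher.

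Total counts per library were 17449270 to 18865997. Libraries of a group are taken as separate animals, as each has a code of its own. High-load 1 stood apart from the other kidneys: it was the lowest of the 6 for 29 of 42 members (69%, against 29.9% of all genes), and the members' median log2 difference from the low-load mean was -0.37 there, -0.15 in high-load 2 and -0.12 in high-load 3. Without high-load 1 the members' median log2 fold change was -0.14. All 12 proximal tubule markers were detected, all 12 had a fold change below 1 (median log2 fold change -0.91, 0 past the adjusted threshold in edgeR, 3 lower in DESeq2 and 4 lower at an unadjusted p under 0.05 in edgeR), and their summed level was 20013 to 27070 CPM in low-load kidneys, 4434 CPM in high-load 1, 22063 CPM in high-load 2 and 11824 CPM in high-load 3. Of the 4, Slc7a13 had overlapping groups, at 0.555, 118 and 1.31 CPM in low-load and 0.142, 0.543 and 0.557 CPM in high-load kidneys. It stood high in low-load 2 alone. The 6 macrophage and lymphocyte markers summed to 108 to 143 and 232 to 429.99 CPM, and the 5 tubule injury markers to 418 to 691 and 1594 to 3626 CPM. Thick ascending limb markers summed to 4954 to 7439 and 4005 to 4506 CPM. Distal convoluted tubule markers summed to 2351 to 3072 CPM in low-load kidneys and 1085, 2506 and 3274 CPM in high-load 1 to 3. Likewise, podocyte markers gave 432 to 529, then 197, 498 and 508 CPM, and endothelium 224 to 289, then 158, 278 and 188 CPM. Principal cell (273 to 789 and 210 to 436 CPM) and intercalated cell sums (140 to 186 and 123 to 177 CPM) overlapped. In whole tissue, fewer proximal tubule cells and less RNA of their markers per cell cannot be told apart. In high-load 2, Kap alone made up 9589 CPM of the proximal tubule sum. Without Kap the sum was 12474 CPM there, under the 14905 to 17711 CPM of low-load kidneys, and 8 of the 12 markers lay below every low-load kidney. The members below every low-load kidney numbered 29 of 42 in high-load 1 (37.3% of all genes), 25 in high-load 2 (29.1%) and 21 in high-load 3 (31.6%). The part of these marker shifts in the carriers' values was not tested.

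Promoter windows, the 250 bases before an annotated start in RefSeq (GRCm38.p6, the build mm10), were available for 33 of the 42 members. A pair is shown for the ATP-Mg carriers Slc25a25 and Slc25a24, which pointed in opposite directions, with capitals marking the cAMP response element TGACGTCA, the palindrome bound by CREB and ATF proteins. The Slc25a25 window lies before 1 of its 3 annotated starts, at chr2:32424067-32424316 on the minus strand.
Slc25a25: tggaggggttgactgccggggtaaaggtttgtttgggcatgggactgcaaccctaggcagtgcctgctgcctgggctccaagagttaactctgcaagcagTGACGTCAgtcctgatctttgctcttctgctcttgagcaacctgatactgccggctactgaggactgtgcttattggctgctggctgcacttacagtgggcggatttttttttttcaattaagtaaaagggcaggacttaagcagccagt
The Slc25a24 window, at chr3:109122899-109123148 on the plus strand, holds no such element.
Slc25a24: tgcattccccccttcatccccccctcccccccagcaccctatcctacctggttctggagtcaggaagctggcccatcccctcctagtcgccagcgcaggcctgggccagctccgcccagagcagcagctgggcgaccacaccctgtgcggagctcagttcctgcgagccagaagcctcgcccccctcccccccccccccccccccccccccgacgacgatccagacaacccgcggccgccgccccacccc
The other member with the element is Slc25a36, a pyrimidine nucleotide carrier, shown around it at chr9:97111179-97111218 on the minus strand.
Slc25a36: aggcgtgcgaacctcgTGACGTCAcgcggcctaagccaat
The element begins 150 bases before the Slc25a25 start and 161 bases before the Slc25a36 start. It was found in 2 of 43 member windows (4.65%), against 1.55% of 32851 windows of all genes, both strands searched. The ETS site CCGGAAG, which GABPA binds in many genes for mitochondrial proteins, was in 5 of 43 (Slc25a3, Slc25a4, Slc25a17, Slc25a20 and Slc25a38; 11.6%, against 6.91%). The composite ATF element TGATGCAA and the NRF1 palindrome were in 0 of 43 (0.791% and 0.782% of all windows). These matches describe letters in the windows only.

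Carriers of ATP, ADP and phosphate were the most abundant of the family. Levels between genes are compared as CPM per kb of transcript, using the median length of a gene's protein-coding transcripts. Slc25a5, the ADP/ATP carrier ANT2, was the highest member in low-load kidneys at 918 ± 73.4 CPM per kb (SD, n = 3), followed by the phosphate carrier Slc25a3 at 774 ± 26.5 CPM per kb. These 2 ranked first and second also per kb of all annotated exons. The next were Slc25a39, a glutathione carrier, at 269 ± 21.9, the dicarboxylate carrier Slc25a10 at 251 ± 61.3, and Slc25a4, the ADP/ATP carrier ANT1, at 196 ± 11.2 CPM per kb. The first and second lay further apart than their SDs, while Slc25a39 and Slc25a10 did not. At the other end stood Slc25a47, Slc25a53 and Slc25a43 at 1.60, 1.28 and 0.660 CPM per kb. The 42 members together summed to 6218, 6764 and 5996 CPM in low-load 1 to 3 and 4254, 5591 and 5244 CPM in high-load 1 to 3, so the groups did not overlap.

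**Figure D2:**
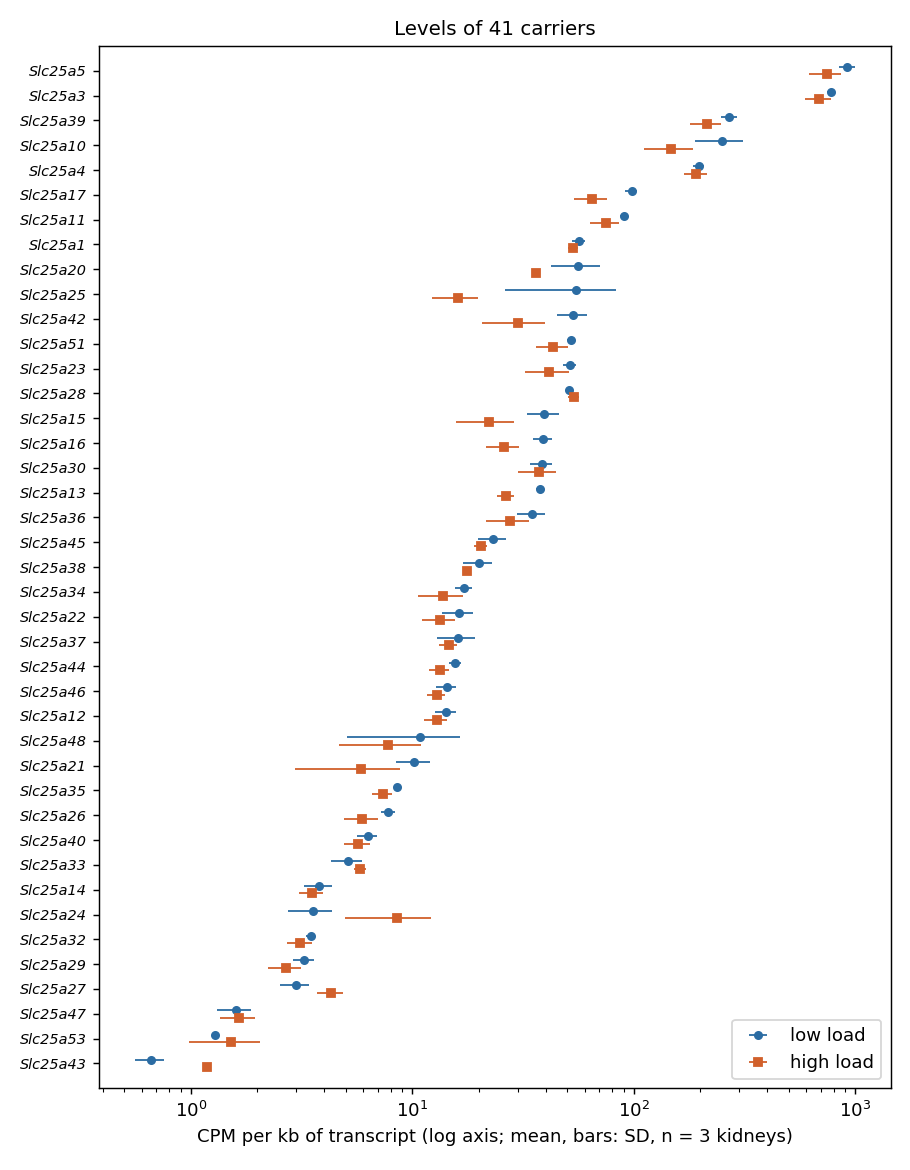
Level of 41 of the 42 carriers in CPM per kb of transcript on a log axis, as mean with SD over 3 kidneys, low load in blue and high load in orange, ordered by the low-load level. Slc25a5 and Slc25a3 stand above all others in both groups.

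Slc25a5 was at 1073, 1243 and 1100 CPM in the low-load kidneys and 759, 1057 and 941 CPM in the high-load kidneys. All 3 high-load values lay below all 3 low-load values, by 15.8 CPM at the nearest pair, and the log2 fold change of -0.31 (SE 0.18) did not pass (adjusted p 0.331). Slc25a5 has processed pseudogene copies, and the treatment of reads that match several places was not recorded. Slc25a4 overlapped between groups at 378 ± 21.5 and 368 ± 45.1 CPM (log2 fold change -0.038, SE 0.14), and Slc25a3 stood at 1147 ± 39.3 and 1012 ± 135 CPM (-0.18, SE 0.17). The ratio of Slc25a4 to Slc25a5, per kb and within a kidney, was 0.237, 0.200 and 0.207 in low-load kidneys and 0.268, 0.238 and 0.272 in high-load kidneys. These ratios did not overlap between groups, since high-load 2 lay just above low-load 1.

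The ATP-Mg/phosphate carriers, which calcium activates and which load the matrix with adenine nucleotides, held the family's largest differences, in opposite directions. Slc25a25 (SCaMC-2; ENSMUSG00000026819, chromosome 2, 32414487 to 32451445, minus strand) was at 287, 139.8 and 113 CPM in low-load kidneys and 44.9, 66.9 and 46.3 CPM in high-load kidneys. Every high-load kidney was below every low-load kidney, and the spread among low-load kidneys was wide. Its log2 fold change was -1.77 (SE 0.37), with an adjusted p of 0.0981 in edgeR and 7.1e-05 in DESeq2. Without low-load 1 the value was -1.26, and without high-load 1 DESeq2 gave -1.67 with an adjusted p of 0.0697. Exons of Slc25a25 overlap those of Naif1 on the opposite strand by 379 bases, and no source used here says if strand was used in counting. Reads from its 3 starts are not separated in the table.

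Slc25a24 (SCaMC-1; ENSMUSG00000040322, chromosome 3, 109123149 to 109168457, plus strand) was at 15.4, 10.3 and 10.9 CPM in low-load kidneys and 41.4, 16.7 and 30.1 CPM in high-load kidneys. High-load 2 was close to low-load 1, and high-load 1 was the highest. Its log2 fold change was 1.27 (SE 0.34; adjusted p 0.120 in edgeR and 0.0070 in DESeq2), and without high-load 1 it was 0.94. Slc25a23 (SCaMC-3), the third of these carriers, was at 173 ± 11.8 and 139.6 ± 31.4 CPM, with overlapping groups. Within a kidney the ratio of Slc25a25 to Slc25a24 per kb was 19.5, 14.2 and 10.8 in low-load and 1.14, 4.19 and 1.61 in high-load kidneys. The carriers were thus nearest to equal in high-load 1, and all high-load ratios lay under all low-load ratios. The ratio of Slc25a23 to Slc25a24 was 10.6, 17.5 and 17.1 against 2.56, 9.94 and 5.16, also without overlap. For each of these ratios an exact permutation test of log2 ratios gave a two-sided p of 0.1, the smallest that 3 against 3 kidneys allow (0.18 after adjustment over 9 pairs of carriers).

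**Figure D3:**
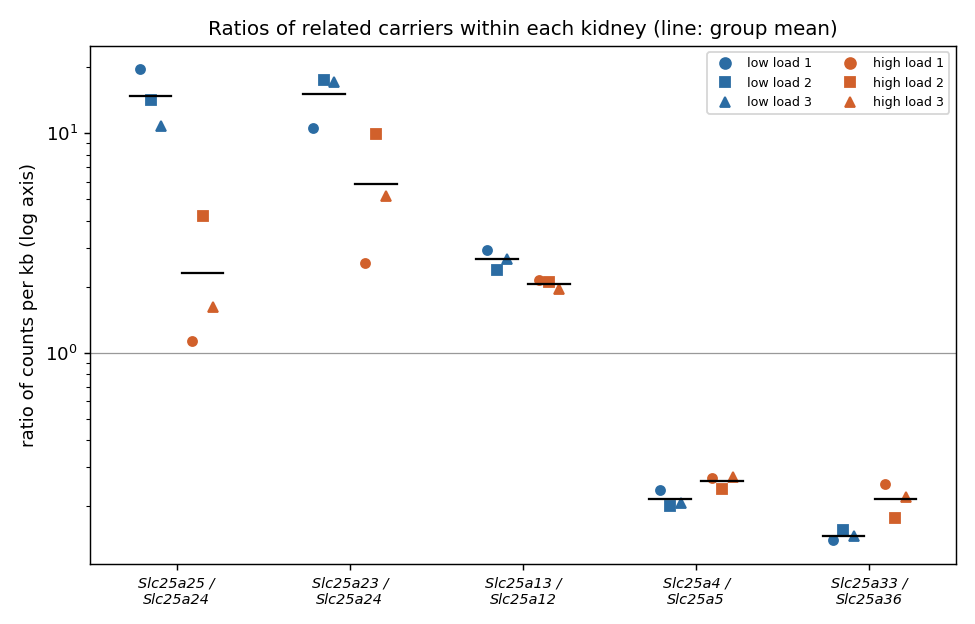
Ratios within each kidney for the 5 of 9 pairs of related carriers whose groups did not overlap, as counts per kb on a log axis, low load in blue and high load in orange, with lines at group means. The ratio of Slc25a25 to Slc25a24 lies between 10.8 and 19.5 in low-load kidneys and between 1.14 and 4.19 in high-load kidneys.

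Among carboxylic acid carriers, 2 of 4 had groups that did not overlap, both lower. Slc25a10, which exchanges malate and succinate for phosphate or sulfate and serves glucose synthesis, was at 496, 636 and 389 CPM in low-load kidneys and 225, 372 and 299.8 CPM in high-load kidneys. The nearest kidneys, low-load 3 and high-load 2, were 16.6 CPM apart, and the log2 fold change was -0.76 (SE 0.25; adjusted p 0.150 in edgeR, 0.0288 in DESeq2). Slc25a11, the oxoglutarate/malate carrier of the malate-aspartate shuttle, had groups that did not overlap at 154 ± 5.30 and 128 ± 19.1 CPM (log2 fold change -0.27, SE 0.13). The citrate exporter Slc25a1 stood at 93.9 ± 6.52 and 88.7 ± 4.96 CPM (-0.083, SE 0.091), and the oxoadipate carrier Slc25a21, which serves lysine breakdown, at 14.2 ± 2.46 and 8.14 ± 4.03 CPM with overlapping groups. The ratio of Slc25a10 to Slc25a11 overlapped between groups. Exons of Slc25a10, Slc25a11 and Slc25a21 each overlap those of a gene on the opposite strand.

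Slc25a20, the carnitine-acylcarnitine carrier that brings long-chain fatty acids into the matrix, was at 118, 112 and 71.6 CPM in low-load kidneys and 64.3, 64.6 and 64.6 CPM in high-load kidneys. The high-load kidneys were nearly equal, high-load 1 included, and the gap to the other group rested on 7.01 CPM between low-load 3 and high-load 3. Its log2 fold change was -0.64 (SE 0.18; adjusted p 0.129 in edgeR, 0.0274 in DESeq2), and DESeq2 kept the call only when low-load 3 was the library left out.

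**Figure D4:**
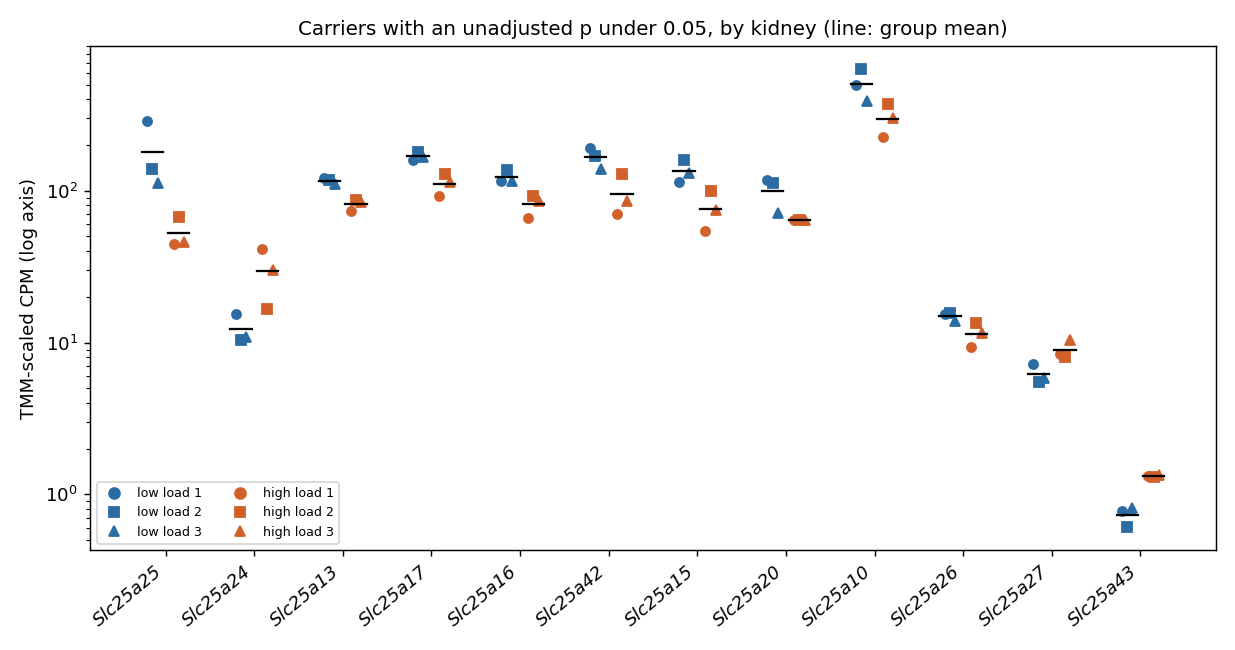
TMM-scaled CPM of the 12 carriers with an unadjusted p under 0.05, by kidney on a log axis, low load in blue and high load in orange, with lines at group means. None of the 12 has overlapping groups, and the 3 high-load kidneys of Slc25a20 nearly coincide.

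Among amino acid carriers, citrin showed the most even difference. Slc25a13 (citrin; ENSMUSG00000015112, chromosome 6, 6041218 to 6217173, minus strand), which exports aspartate in exchange for glutamate and a proton, was at 121, 118 and 111 CPM in low-load kidneys and 73.7, 87.4 and 84.7 CPM in high-load kidneys. The groups were 23.8 CPM apart at the nearest pair, more than the range within either. Its log2 fold change was -0.51 with SE 0.096, the smallest p of the family (adjusted p 0.0946 in edgeR, 0.0008 in DESeq2). DESeq2 called it with any 1 library left out, which held for no other member, with log2 fold changes of -0.57 to -0.45. Slc25a12 (aralar), the paralog with the same exchange, stood at 90.3 ± 10.1 and 81.7 ± 9.70 CPM, and its groups overlapped. The ratio of Slc25a13 to Slc25a12 per kb was 2.95, 2.38 and 2.69 in low-load and 2.14, 2.11 and 1.95 in high-load kidneys, without overlap (exact permutation p of 0.1, 0.18 after adjustment over 9 pairs).

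Slc25a15, the ornithine/citrulline carrier, was at 115, 159 and 132 CPM in low-load kidneys and 54.5, 99.5 and 74.9 CPM under high load. All high-load kidneys lay below all low-load ones, and the fit gave a log2 fold change of -0.83 (SE 0.23; adjusted p 0.127 in edgeR, 0.0157 in DESeq2). The basic amino acid carrier Slc25a29 was low in all kidneys, at 4.29 to 7.05 CPM, with overlap. The glutamate carrier Slc25a22 (41.5 ± 6.66 and 34.0 ± 5.91 CPM) overlapped between groups. So did Slc25a38, which imports glycine for heme synthesis (31.8, 41.6 and 33.5 against 30.2, 32.2 and 32.7 CPM), and Slc25a44, a branched-chain amino acid carrier (54.2 ± 3.37 and 46.0 ± 4.79 CPM).

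Cofactor carriers were the largest substrate group, with 8 of the 42 members. Of these 8, 4 were lower at an unadjusted p under 0.05 (9 of the 42 members and 10.2% of all genes). In 5 of the 8, every high-load kidney lay below every low-load kidney (14 of the 42 members and 15.8% of all genes). Slc25a42, which brings coenzyme A into the matrix, was at 190.3, 171 and 139.96 CPM in low-load kidneys and 69.9, 128 and 85.6 CPM in high-load kidneys. High-load 2 came within 11.9 CPM of low-load 3, and the log2 fold change was -0.82 (SE 0.24; adjusted p 0.130 in edgeR, 0.0171 in DESeq2). Slc25a16, a relative with a less settled substrate, was at 116, 136 and 115 CPM against 65.9, 92.9 and 85.6 CPM, a log2 fold change of -0.59 (SE 0.15). The peroxisomal carrier Slc25a17, which takes up coenzyme A, FAD and NAD, was at 159, 179.7 and 166 CPM in low-load kidneys and 91.8, 129.7 and 114 CPM in high-load kidneys. It was thus lower in all 3 high-load kidneys by 29.1 CPM or more (log2 fold change -0.59, SE 0.14), and adjusted p in edgeR and DESeq2 was 0.108 and 0.0073 for it, and 0.113 and 0.0129 for Slc25a16.

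The S-adenosylmethionine carrier Slc25a26 was at 15.0 ± 1.02 and 11.4 ± 2.00 CPM and the NAD carrier Slc25a51 at 230.1 ± 9.14 and 192 ± 31.5 CPM. Both had groups that did not overlap, by 0.37 CPM and 4.9 CPM at the nearest pair, and adjusted p of 0.202 and 0.304. The FAD and folate carrier Slc25a32 (20.5 ± 0.978 and 18.5 ± 2.42 CPM) and Slc25a47, best known from liver (2.22, 3.10 and 3.00 against 3.12, 3.20 and 2.28 CPM), overlapped between groups.

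Iron and nucleotide carriers overlapped between groups. Slc25a28 (mitoferrin-2), which imports iron, was at 58.4, 58.8 and 59.7 CPM in low-load kidneys and 64.2, 57.5 and 62.8 CPM in high-load kidneys. High-load 2 was the lowest of the 6, and the log2 fold change of 0.062 (SE 0.077) had the smallest standard error of the family. Slc25a37 (mitoferrin-1) overlapped too, at 67.0 ± 13.3 and 60.9 ± 5.71 CPM. The pyrimidine nucleotide carriers pointed apart: Slc25a36 was at 139.4, 159 and 185 against 99.3, 156 and 129.8 CPM, and Slc25a33 at 7.93, 10.0 and 10.9 against 10.2, 11.2 and 11.6 CPM. Each overlapped between groups, but the ratio of Slc25a33 to Slc25a36 per kb did not, at 0.140, 0.155 and 0.146 in low-load and 0.252, 0.177 and 0.219 in high-load kidneys.

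Slc25a39, which imports glutathione, was at 413, 483 and 431 CPM in low-load kidneys and 289, 403 and 362 CPM in high-load kidneys. High-load 2 lay just under low-load 1, and the log2 fold change of -0.33 (SE 0.16) had an adjusted p of 0.252. Its paralog Slc25a40 overlapped at 16.9 ± 1.75 and 15.2 ± 2.04 CPM, and so did the ratio between them. Slc25a48, a choline carrier, was at 23.9, 58.6 and 26.8 against 37.8, 17.2 and 23.9 CPM, with low-load 2 above the rest; it is singled out after its values were seen. Without low-load 2 its log2 fold change changed sign to 0.051, and neither value passed.

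Relatives of the uncoupling proteins and members of unsettled substrate held the other members that were higher at an unadjusted p under 0.05. Slc25a27 (UCP4), known mainly from brain, was at 7.27, 5.47 and 5.88 CPM in low-load kidneys and 8.37, 8.09 and 10.4 CPM under high load (log2 fold change 0.52, SE 0.19; adjusted p 0.163 in edgeR, 0.121 in DESeq2). All high-load kidneys lay above all low-load ones, by 0.82 CPM at the nearest pair. Slc25a43 was at 0.777, 0.608 and 0.817 against 1.32, 1.30 and 1.34 CPM (0.84, SE 0.26; adjusted p 0.139 and 0.236). That value rests on 14, 10 and 15 counts in low-load and 28, 24 and 24 counts in high-load kidneys, the lowest counts among the members. Just under the minimum stood Slc25a18, another glutamate carrier, with 12, 11 and 9 counts and then 5, 9 and 9. Slc25a2, Slc25a31, Slc25a41 and Slc25a54 had at most 9 counts in any kidney.

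Slc25a30, named kidney mitochondrial carrier protein after its tissue, was at 139, 153 and 122 CPM in low-load and 118, 119 and 163 CPM in high-load kidneys, with high-load 3 the highest of all. Slc25a14 (UCP5) overlapped at 5.21 to 7.38 CPM. Of the orphans, Slc25a45 was at 47.8, 59.6 and 46.7 against 41.9, 45.8 and 48.2 CPM and overlapped, as did Slc25a34 (45.6 ± 4.13 and 36.8 ± 8.46 CPM). Slc25a53 was at 3.99, 3.95 and 4.14 CPM in low-load kidneys and 6.66, 3.47 and 4.18 CPM in high-load kidneys, so only high-load 1 stood clearly above. Slc25a35 had groups that did not overlap at 23.5 ± 0.482 and 20.2 ± 2.11 CPM (adjusted p 0.254), and 1151 bases of its exons overlap Rangrf on the opposite strand. Slc25a46, which acts in mitochondrial dynamics, overlapped at 62.5 ± 6.34 and 56.3 ± 5.34 CPM.

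Enzymes that make or use the carried substrates were mostly lower too. Of 52 tested, 44 lay below a fold change of 1 (49.1% of all genes) and the median log2 fold change was -0.42. In 30, every high-load kidney lay below every low-load kidney (15.8% of all genes), and in 1 every one lay above (17.1%). In all, 23 were lower (10.2% of all genes) and 1 higher (14%) at an unadjusted p under 0.05, and 0 passed an adjusted p under 0.05 in edgeR. DESeq2 called 18 lower (3.88% of all genes) and 1 higher (6.67%). Without high-load 2, edgeR called 4, when 1.62% of all genes were called lower and 3.34% higher. Without high-load 3 the lower ones at an unadjusted p under 0.05 numbered 14 (6.15% of all genes). Beside Slc25a20 stood Cpt2, which frees acyl groups from carnitine in the matrix, at 192 ± 30.7 and 105 ± 19.6 CPM (log2 fold change -0.87, SE 0.18; adjusted p 0.0967), and Crat, carnitine acetyltransferase, at 202 ± 9.37 and 137 ± 21.8 CPM. Pank1, the kinase that starts coenzyme A synthesis, stood at 194 ± 8.91 and 102 ± 26.1 CPM (-0.92, SE 0.18; adjusted p 0.0955), beside the lower values of Slc25a42, Slc25a16 and Slc25a17. Mthfd2, a mitochondrial folate enzyme, was at 6.71 ± 1.09 and 27.2 ± 5.86 CPM (2.02, SE 0.20; adjusted p 0.0696), without overlap. Mthfd1l, another, overlapped at 3.51 ± 1.01 and 6.74 ± 4.51 CPM (adjusted p 0.283). The other enzymes listed with folate and FAD, Rfk and Flad1, had log2 fold changes of -0.40 and -0.093, and Shmt2, a mitochondrial serine and folate enzyme listed with glycine, had -0.67, none past the adjusted threshold in edgeR. Got1, the cytosolic transaminase that takes up the aspartate citrin exports, overlapped at 147 ± 28.3 and 163 ± 15.5 CPM.

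Transport proteins of the mitochondrion outside the SLC25 symbols were more often lower than higher. Of 22 tested, 14 had a fold change below 1 (49.1% of all genes), and the median log2 fold change was -0.13. In 8, every high-load kidney lay below every low-load kidney (15.8% of all genes), and in 0 every one lay above (17.1%). At an unadjusted p under 0.05 in edgeR, 4 were lower (10.2% of all genes) and 2 higher (14%). At an adjusted p under 0.05, edgeR called 0 and DESeq2 called 1, which was lower (3.88% of all genes). Lower were Sfxn2 (83.7 ± 7.17 and 56.7 ± 11.5 CPM), a sideroflexin, Mpc1, a subunit of the pyruvate carrier (62.8 ± 4.28 and 48.2 ± 7.36 CPM), and Sfxn1, the serine carrier (199 ± 10.4 and 134 ± 33.7 CPM). Higher were Sfxn3 (40.04 ± 3.91 and 58.5 ± 13.6 CPM) and Ucp2 (207 ± 54.3 and 321 ± 80.7 CPM). Ucp2 is an uncoupling protein of the same carrier family, but its symbol does not begin with Slc25a. Next was Mcub, a subunit of the calcium uniporter (2.75 ± 0.730 and 4.28 ± 1.58 CPM). The groups of Sfxn3, Ucp2 and Mcub overlapped. The count of higher genes at an unadjusted p under 0.05 was 0 without high-load 3 (12% of all genes). It was also 0 without low-load 3 or high-load 1, where the share of all genes was not counted. It was 1 without low-load 2 (9.84% of all genes). The count of lower genes was 1 without low-load 2 (6.25% of all genes) and 7 without high-load 2 (13.2%).

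The number of carriers called depended on the test and on single kidneys. Without high-load 2, edgeR called 5 members at an adjusted p under 0.05: Slc25a24 was higher (3.34% of all genes), and Slc25a13, Slc25a15, Slc25a17 and Slc25a42 were lower (1.62% of all genes). Left out in turn, each other library gave 0 members. Without low-load 2 only 1 member was higher at an unadjusted p under 0.05 (9.84% of all genes). Without low-load 1 there were 22 lower members whose groups did not overlap, when 20.7% of all genes were so. DESeq2's count of 8 lower members was 4 without low-load 1 (1.71% of all genes) or high-load 1 (2.13%), 5 without low-load 3 (1.73%), and 2 without low-load 2 (0.936%) or high-load 3 (1.06%). It was 10 without high-load 2, where 7.97% of all genes were called lower. Slc25a24 remained called without low-load 1 (4.33% of all genes called higher) or high-load 2 (8.86%). It was not called without low-load 2 (2.65%), low-load 3 (3.08%), high-load 1 (3.42%) or high-load 3 (4.67%).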

How the data were processed

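The table deposited by the authors holds unnormalized counts for each Ensembl gene in each kidney. Per the labels' protocols, RNA was isolated with TRIzol, prepared with an Illumina TruSeq kit and read as 150 bp pairs on a DNBSEQ instrument. Per the submitters' processing notes, fastp 0.23.2, HISAT2 2.2.1, SAMtools 1.11, featureCounts 2.0.1 and edgeR were used with the build mm10; annotation, strand setting and treatment of multi-mapping reads are not stated there. Symbols, positions and lengths came from GENCODE M21 (32235 of 32285 IDs matched).

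The fit used edgeR 4.0.16 in R 4.3.3 on all genes: filterByExpr (minimum count 10), scaling by TMM, robust quasi-likelihood with group as the only term, and p-values adjusted by Benjamini-Hochberg across 15955 genes (threshold 0.05). It was tested on simulated data, where recovery was required only at a fold change larger than any carrier's here. That test does not show how well smaller differences are found. CPM are TMM-scaled; standard errors derive from the F statistic. The labels do not say more of the animals than 1 code each, so p-values measure the spread between these libraries. Replicate pairs gave a chi-square of 21.4 to 100.02 per degree of freedom. No pair thus differed by counting noise alone, and all were kept as separate libraries. The value is no measure of their quality. DESeq2 1.42.0 and limma-voom (limma 3.58.1), scaling, filters, a replicate block, load as a number and leaving out each library were alternatives; DESeq2 with libraries left out was added after seeing the data. The members, substrate groups and lists were chosen with earlier results of these data known. Named with every kidney's value were the 8 lower and 7 higher members of smallest p and the most abundant, per kb, of each substrate group with 2 or more members; of the other lists, 3 per direction. The rule allowed 8 higher members, but 7 had a fold change above 1. The counts cover all 42 members, but 1 member is not reported here by itself. In 13 members, exons overlap those of another gene.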

Additional observations from a re-analysis of the deposited data

How the results depend on the processing

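Members past an adjusted p under 0.05 numbered 0 in edgeR under other scaling, other filters, no robust estimation and load as a number. They numbered 9 in DESeq2 and 2 at an adjusted p under 0.1. Leaving out 1 library gave 0 to 5. Higher members at an unadjusted p under 0.05 were 1 to 3, and lower ones 8 to 13. The 13 were without high-load 2, when 13.2% of all genes were lower at that p. The members' median log2 fold change was -0.11 with library totals alone, where the median of all genes was 0.13, and -0.24 to -0.14 with 1 library left out. Members whose groups do not overlap were 3 to 5 higher and 15 to 22 lower with 1 library left out. Fewer kidneys make this easier for any gene. Of all genes, 15.8% were lower without overlap over 6 kidneys and 19.4% to 23.2% with 1 library left out. With library totals alone, 4 members were higher and 10 lower. For these counts, and for the higher members with 1 library left out, the share of all genes was not counted. DESeq2's calls were 2 to 10 lower and 0 to 1 higher. With 1 library left out it called 0.936% to 7.97% of all genes lower and 2.65% to 8.86% higher. Among other transport proteins, DESeq2 called 1, library totals gave 4 higher and load as a number 1 higher, and no filter gave 7 lower. With 1 library left out they were 0 to 2 past the adjusted threshold, 0 to 3 higher and 1 to 7 lower. Among enzymes, 1 passed without a filter and with load as a number, and 19 in DESeq2. With 1 library left out 0 to 4 passed, 1 to 2 were higher and 14 to 27 lower. The 14 were without high-load 3 (6.15% of all genes lower) and the 27 without high-load 2 (13.2%). The 2 higher were without low-load 2 (9.84% of all genes higher) or high-load 2 (15.9%). With library totals, no filter or load as a number, the share of all genes called was not counted. The causes were not tested.

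The titles number the kidneys 1 to 3 in each group. Same-numbered kidneys correlated at 0.12, -0.18 and 0.049 in their deviations from the group means, and differently numbered ones at -0.28 to 0.31. Same-numbered kidneys were thus not more alike than others. With so few kidneys these values cannot show if they share more than a number. With the replicate block, 0 members passed, 9 were lower and 3 higher, and the median was -0.23. Of 672 member values under an alternative, 17 in 9 members had another sign, none called. With 3 kidneys per group, small differences are not detectable here.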
